A study of Mus musculus with 120 samples.

Results

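Group 2 innate lymphoid cells (ILC2) are tissue lymphocytes that answer IL-33 by secreting the type 2 cytokines IL-5 and IL-13. Their cholesterol and fatty acid synthesis genes are described here, a set of 29 genes taken by name from a list and matched to 29 of the 46078 Ensembl identifiers counted. No measured value enters the rule, although the set was proposed with earlier results of these data known. By role the set holds 18 genes of sterol synthesis (Acat2, Hmgcs1, Mvk, Pmvk, Mvd, Idi1, Fdps, Fdft1, Sqle, Lss, Cyp51, Tm7sf2, Msmo1, Nsdhl, Hsd17b7, Ebp, Sc5d and Dhcr7), 5 regulators (Insig1, Insig2, Srebf1, Srebf2 and Scap), the sterol carrier Stard4, and 5 genes of fatty acid synthesis and desaturation (Fasn, Acaca, Scd2, Fads1 and Fads2).

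The study made 3' RNA libraries of 120 single mouse ILC2, 1 library a cell, after live imaging of cytokine secretion. The cells came from pooled mesenteric fat of 20 wildtype C57BL/6 mice, were sorted as lineage-negative cells bearing c-Kit and Sca-1, and had been kept in culture for months, so they stand for an expanded culture and not for freshly isolated ILC2. Either IL-13 or IL-5 secretion was imaged as the index, and cells are called IL-13-indexed or IL-5-indexed accordingly. The culture medium already held IL-2. Each index had untreated pre-stimulation cells (5). After incubation with IL-2 and IL-33 it had cells taken 30, 60 or 90 min after secretion began, activated cells and silent cells (11 cells each). Activated cells had secreted the index cytokine and silent cells had not. Only the index cytokine was imaged, so a silent cell may have secreted the other. Because cells are tied to no animal or culture in the labels, each of the 12 groups was treated as 1 sample, and no test between groups was made. Intervals beside levels and ratios are 95% limits from the read counts, which cover counting error only, and reads had no molecular identifiers. Intervals beside shares of cells are 95% exact binomial limits over the cells of both indexes and both dates, which treat cells as independent although they come from few samples. Fewer expressing cells and less RNA per cell cannot be told apart in a group's level, so the number of cells with a read is given for the main levels.

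Cholesterol synthesis starts from acetyl-CoA, runs through mevalonate, isoprenoids and squalene, and reaches lanosterol, which a further series of enzymes turns into cholesterol. When membrane cholesterol is low, SCAP carries the SREBP transcription factors from the endoplasmic reticulum to the Golgi, where they are cleaved, and the released factors switch on most genes of the pathway. INSIG proteins hold SCAP back when sterols are plentiful. Lymphocytes are known to use the pathway when they are activated and grow.

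Promoters of known SREBP targets hold sterol response elements and CCAAT boxes, which bind NF-Y. RefSeq promoters (250 bases before to 50 after the start site, build GRCm38.p6) were matched for 23 of the 29 genes. CCAAT or, on the other strand, ATTGG stood in 19 of the 23 and in 14 of the 15 sterol synthesis genes matched, against 41.1% of 27025 genes and 42.6% of the genes well measured in these cells. The GC box (GGGCGG or CCGCCC) stood in 20 of the 23, against 71.3% of the well measured genes. The E-box CACGTG stood in 5 of the 23, against 13.2%. The sterol response element searched, TCACNCCAC or GTGGNGTGA, was found in the Hmgcs1 promoter alone among the members and in 1.44% of all genes. A match describes letters only. The 150 bases before the start site are shown for 2 members that were low before stimulation, Hmgcs1 (chr13:119690201-119690350, plus strand) and Mvd (chr8:122443423-122443572, minus strand), and for Ebp (chrX:8193513-8193662, minus strand) and Sc5d (chr9:42264301-42264450, minus strand), which were not low. They were taken from members whose stretch lies outside the gene's span in the GENCODE annotation, since RefSeq places some start sites elsewhere. Capitals mark CCAAT letters on either strand and, as the first run of capitals in Hmgcs1, the sterol response element.
Hmgcs1: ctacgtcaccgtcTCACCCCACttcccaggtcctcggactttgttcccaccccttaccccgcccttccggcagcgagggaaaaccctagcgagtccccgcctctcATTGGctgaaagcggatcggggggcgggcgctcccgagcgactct
Mvd: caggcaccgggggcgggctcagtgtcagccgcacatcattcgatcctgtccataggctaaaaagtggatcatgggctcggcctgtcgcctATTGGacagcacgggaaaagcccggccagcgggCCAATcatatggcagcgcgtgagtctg
Ebp: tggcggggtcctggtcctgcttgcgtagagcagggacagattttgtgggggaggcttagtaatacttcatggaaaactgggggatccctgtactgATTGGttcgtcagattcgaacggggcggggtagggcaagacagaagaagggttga
Sc5d: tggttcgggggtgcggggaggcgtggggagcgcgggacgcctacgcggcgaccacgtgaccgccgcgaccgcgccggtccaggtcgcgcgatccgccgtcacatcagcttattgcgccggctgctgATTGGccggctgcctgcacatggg
The 4 stretches shown hold CCAAT letters on at least 1 strand. The same stretch of Insig1, which was also low before stimulation, holds none. That stretch runs into the gene's GENCODE span, and the longer Insig1 promoter searched above does hold CCAAT letters.

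The libraries carried ILC2 transcripts throughout. All 14 ILC2 markers had reads, with 6370.1 to 14212 reads per 1000000 gene reads (CPM) in sum per group, while all B cell, adipocyte and fibroblast markers were at 0. The ILC2 sum was 12523 and 11811 CPM before stimulation and 6370 and 8502 CPM in activated cells (IL-13 and IL-5 index). Of 8 T cell markers 6 had reads (327 to 1884 CPM), with Cd4 and Cd8a at 0. Their sum was 1740.0 and 1884 CPM before stimulation and 515 and 327 CPM in activated cells (IL-13 and IL-5 index), with Cd3g at 1128 and 1195 CPM before stimulation and at 0 in activated cells, and the part of this in the comparisons below was not tested. Of 5 mast cell markers 2 had reads, at up to 326 CPM, of 6 macrophage or monocyte markers 1 (Adgre1, up to 38.3 CPM), and of 3 endothelial markers 1, Pecam1, at 0 and 5.77 CPM before stimulation and up to 175 CPM later. The median cell had 254001 gene reads, and 6 cells had under 84667. Of these, IL-5-indexed replicate 10 at 30 min and replicate 8 at 60 min had only 73 and 65 gene reads, and silent replicate 7 had 2152. They stay in the numbers of cells, the medians and the lowest values below, where a 0 in them says little. At an equal depth of 100000 reads, which 113 cells reached, the median number of genes detected was 1918 and 2236 in pre-stimulation cells (IL-13 and IL-5 index), 2924 and 2999 in activated cells and 2378 and 2615.5 in silent cells. The indexes carry different dates in the sample titles, so index and date cannot be told apart. Pre-stimulation cells carry only the first of the 2 dates of their index.

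The 29 genes took 42557 reads, 0.137% of all gene reads and at most 0.501% of a cell's. At least 1 read was found for 28 of them, and the fatty acid desaturase gene Fads2 had 0 reads in 120 cells. Averaged over the 12 groups, 22 genes reached 10 CPM and 9 reached 50 CPM, namely Msmo1, Sc5d, Idi1, Ebp, Cyp51, Sqle, Insig1, Fdft1 and Hmgcs1. Fdps, Tm7sf2, Dhcr7, Srebf1, Acaca, Scd2 and Fads2 stayed under 10 CPM.

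**Figure D1:**
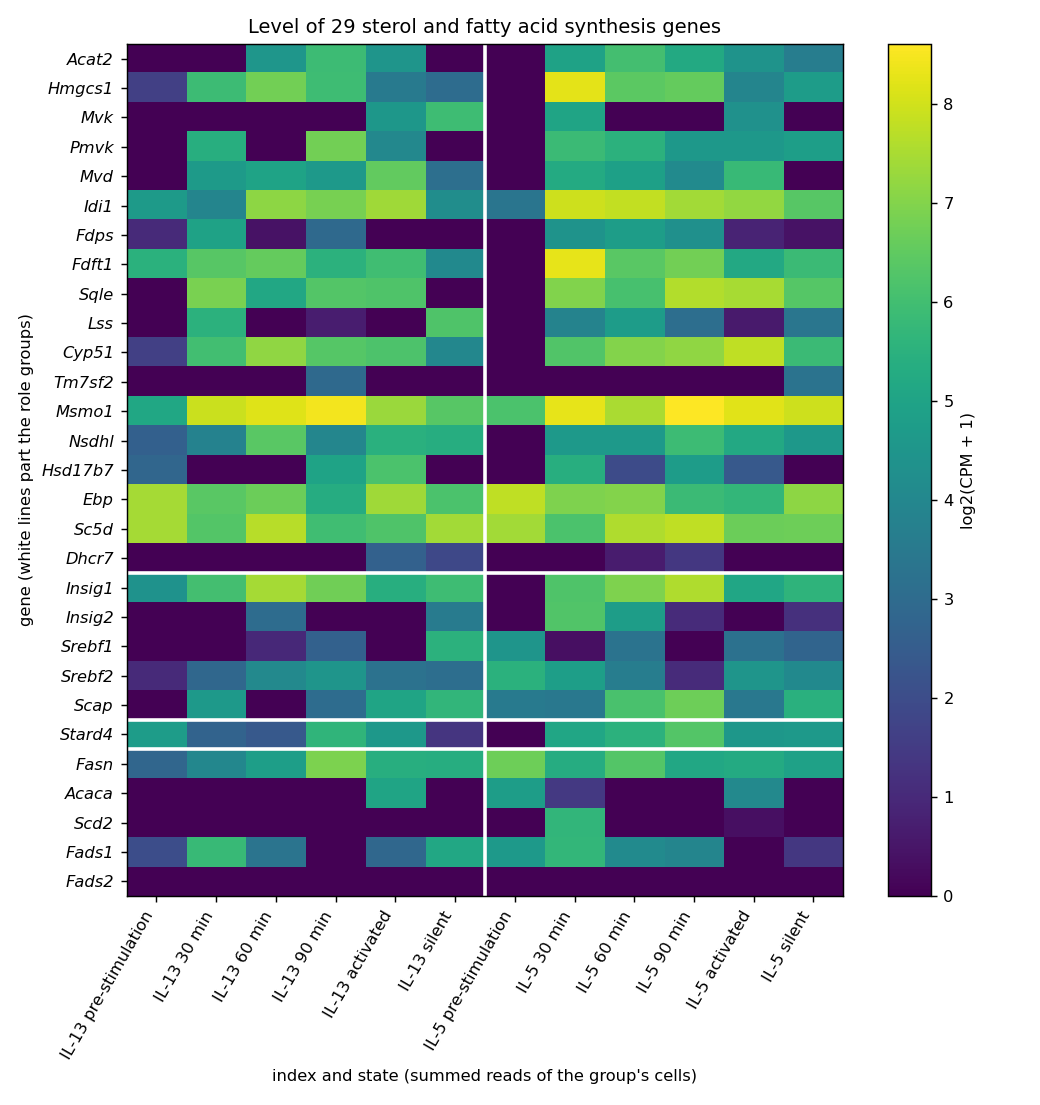
Level of the 29 genes in the 12 groups, as log2(CPM + 1) of the summed reads, by index and state. Most sterol synthesis genes are near 0 in both pre-stimulation columns and higher to the right of them, while Ebp and Sc5d stand between 168 and 221 CPM before stimulation.

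The summed level of the 18 sterol synthesis genes was about equal in both pre-stimulation groups and higher in each state after stimulation. The log2 ratio of IL-5-indexed to IL-13-indexed pre-stimulation cells was 0.005, but -0.64 without IL-5-indexed replicate 5 and 0.70 without IL-13-indexed replicate 1. Most of the sum before stimulation came from Ebp and Sc5d, described below, which were not low there, so the ratios of the sum rest in part on these genes. Single pre-stimulation cells stood at 987, 255, 6.07, 243 and 569.5 CPM (IL-13-indexed) and at 435, 3.26, 276, 573 and 1256 CPM (IL-5-indexed). Activated cells ran from 9.65 over a median of 801 to 2115 CPM and from 157 over 1088 to 2414 CPM, in the same order. Silent cells ran from 0 over 399 to 1636 CPM and from 92.0 over 989 to 1406 CPM. Cells of all states overlapped the pre-stimulation cells, and the groups differed in their medians and highest cells.

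From summed reads, IL-13-indexed cells held 468 CPM (425 to 513) before stimulation and 893, 1250.2, 1078, 1056 and 562 CPM at 30, 60 and 90 min, in activated and in silent cells. IL-5-indexed cells held 469 CPM (432 to 509.6) and then 1825, 1309, 1565, 1203 and 870.0 CPM. The log2 ratios to pre-stimulation were 0.93 (0.79 to 1.08), 1.42, 1.20, 1.17 (1.03 to 1.32) and 0.26 (0.11 to 0.42) with the IL-13 index. With the IL-5 index they were 1.96 (1.83 to 2.08), 1.48, 1.74, 1.36 (1.23 to 1.49) and 0.89 (0.76 to 1.02). On the first title date alone, the one that the pre-stimulation cells carry, the ratio was 1.93 at 90 min with the IL-13 index and 0.59 in activated cells with the IL-5 index. The silent ratio of IL-13-indexed cells did not keep its sign, being -0.15 without silent replicate 6.

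A single pre-stimulation cell weighed on these ratios. Replicate 1 of the IL-13-indexed cells held 243 of the group's 451 sterol synthesis reads and had 3896 genes detected, the most of its group. Without it the ratio became 1.62 at 30 min, 1.87 in activated and 0.96 in silent cells. Among IL-5-indexed cells, leaving out pre-stimulation replicate 5 gave 2.60 at 30 min and 2.00 in activated cells, and leaving out replicate 2 gave 1.54 and 0.94. The part of the number of genes detected per cell in these ratios was not tested.

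**Figure D2:**
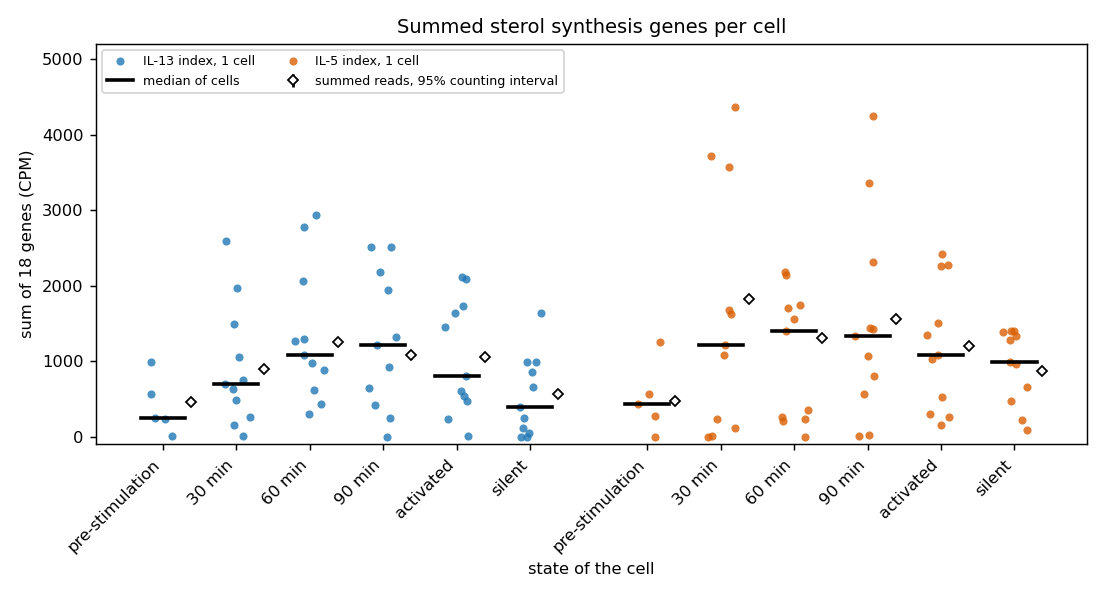
Sum of the 18 sterol synthesis genes in each of the 120 cells (points, CPM) by index and state, with the median of cells (bars) and the level from summed reads with its 95% counting interval (diamonds). Pre-stimulation cells reach 1256 CPM, and the highest cells, at 4371 and 4249.7 CPM, are IL-5-indexed cells of 30 and 90 min.

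Activated cells exceeded silent cells in this sum by a log2 ratio of 0.91 (0.82 to 1.00) with the IL-13 index and 0.47 (0.40 to 0.54) with the IL-5 index. Within the 2 title dates the former was 0.86 and 0.94. The latter was -0.25 and 0.80, so it did not hold within both dates. At 30 min IL-5-indexed cells exceeded IL-13-indexed cells by 1.03 (0.50 between the first and 1.38 between the second dates), and at 90 min by 0.54, which parted into -0.53 and 1.15.

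Gene by gene, more members stood higher than lower after stimulation. A gene is called higher or lower here where 2 groups differ at least 2-fold and the counting interval of the ratio lies on 1 side of no difference, among the 22 members and 6620 genes in all that average at least 10 CPM. Called higher with both indexes were 9 of the 22 at 30 min (16.4% of all genes tested), 11 at 60 min (16.6%), 12 at 90 min (18.4%), 11 in activated cells (19.6%) and 6 in silent cells (17.1%). Cyp51, Msmo1 and Insig1 were called higher in all 10 comparisons with pre-stimulation cells, as were 4.2% of all genes tested. With any 1 cell left out, the fold stayed at 2 or more with both indexes for 5 of the 9 at 30 min, 5 of 11 at 60 min, 7 of 12 at 90 min, 6 of 11 in activated and 1 of 6 in silent cells, a group pair left with at most 3 reads each counting as not. Of the 3 genes just named, Cyp51 was not among them in silent cells, Msmo1 not at 60 min and in silent cells, and Insig1 not at 30 min, in activated and in silent cells. The 1 member left in silent cells was the regulator Scap. Called lower with both indexes were Sc5d at 30 min (8.28% of all genes), Ebp at 90 min (9.14%), and 0 members at 60 min (8.93%), 0 in activated (11.9%) and 0 in silent cells (7.28%). A gene can pass the 10 CPM minimum through the groups where it is high, and the comparisons of an index share its 5 pre-stimulation cells.

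With the single indexes, 11 members were higher and 4 lower at 30 min in IL-13-indexed cells (33.7% and 26.9% of all genes), and 17 and 2 in IL-5-indexed cells (38.5% and 25.1%). Activated cells had 15 higher and 1 lower with the IL-13 index (37.1% and 26.9%) and 13 and 4 with the IL-5 index (39.1% and 28.2%). At 60 min the counts were 13 and 2 (34.2% and 25.8%) and 15 and 1 (39% and 25.8%), and at 90 min 14 and 2 (35.4% and 26.1%) and 15 and 3 (40.7% and 24.9%). Silent cells had 12 and 4 (38.4% and 22.2%), and 13 and 3 (38.8% and 25%). The members' shares called higher lay above the background in activated cells, where the median log2 ratio was 2.49 and 3.02 over the members with a ratio and 0.32 and 0.32 over all genes. These medians rest in part on lower bounds, since a group under 3 reads was set to 3.

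Between states after stimulation the calls ran both ways. Activated against silent cells gave 10 higher and 5 lower (25.7% and 31.6% of all genes) of the members with the IL-13 index and 5 and 4 (22.4% and 26.5%) with the IL-5 index. Cells of 30 min against activated cells gave 4 and 8 (27.3% and 32.3%) and 9 and 1 (27.8% and 25.1%), and 90 min against 30 min gave 7 and 4 (28.7% and 25.9%) and 5 and 9 (27.7% and 22.7%). IL-5-indexed against IL-13-indexed cells gave 10 and 2 (30.9% and 23.2%) at 30 min, 8 and 1 (29.6% and 22.6%) at 60 min, 7 and 3 (30.8% and 21.1%) at 90 min, 3 and 4 (23.7% and 21.5%) in activated and 10 and 5 (26.2% and 27.9%) in silent cells. In the comparisons between indexes, date moves with the index.

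Pre-stimulation cells also had the fewest sterol synthesis genes detected. At equal depth the median pre-stimulation cell had reads of 1 and 2 of the 18 sterol synthesis genes (IL-13 and IL-5 index), against 3 and 6.5 at 30 min, 4 and 5.5 at 60 min and 3.5 and 7 at 90 min. Activated cells had 5 and 6, and silent cells 2 and 5. With the indexes together, 13 of the 15 sterol synthesis genes over 10 CPM were detected in a larger share of stimulated than of pre-stimulation cells, which held for 58.8% of all genes tested. The median difference was 18.4 percentage points for these genes and 4.42 for all genes, in 103 stimulated and 10 pre-stimulation cells.

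**Figure D3:**
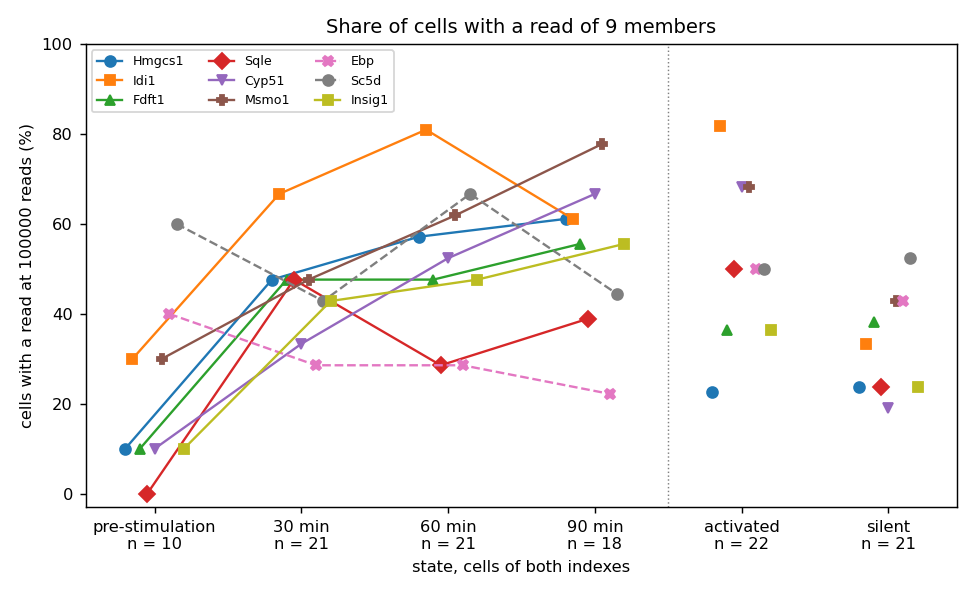
Share of cells with at least 1 read after thinning to 100000 reads, for the 9 members averaging at least 50 CPM, with both indexes together; lines join the states up to 90 min, activated and silent cells stand apart, and points are shifted sideways. Sqle starts at 0%, Hmgcs1, Fdft1, Cyp51 and Insig1 at 10%, and Ebp and Sc5d (dashed) at 40% and 60%.

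In the mevalonate arm, Hmgcs1 (ENSMUSG00000093930, chr13:119690379-119708260), which makes HMG-CoA, was nearly absent before stimulation, highest within 90 min of secretion and low again in activated and silent cells. It had 2 reads in 1 of 5 IL-13-indexed pre-stimulation cells (2.07 CPM) and 0 in the IL-5-indexed ones, where 3 reads would be 2.47 CPM. At 30, 60 and 90 min it stood at 58.6, 108 and 60.6 CPM in 3, 8 and 4 of 11 IL-13-indexed cells and at 304, 85.8 and 93.5 CPM in 7, 4 and 8 IL-5-indexed cells. Activated cells held 10.6 and 14.2 CPM (2 and 3 cells) and silent cells 7.18 and 25.8 CPM (2 and 3 cells). The highest cell, an IL-5-indexed cell of 30 min, had 1117 CPM, where the median was 48.2 and the lowest 0. That group was at least 123-fold above its pre-stimulation cells. Against activated cells, 30 min cells were higher by a log2 ratio of 2.46 (1.92 to 3.04) with the IL-13 index, 1.14 without 30 min replicate 7 and 3.74 without activated replicate 5, and 4.42 (4.02 to 4.85) with the IL-5 index, 6.11 without activated replicate 1. Pmvk, Lss and Fads1 were also called higher at 30 min than in activated cells with both indexes (11.8% of all genes). All 145 IL-13-indexed Fads1 reads at 30 min came from replicate 2, and its ratio of 3.11 was -2.37 without that cell. The Pmvk ratio of 1.46 with the IL-13 index was -3.54 without 30 min replicate 9, where 30 min cells, as for Fads1, were set to the floor of 3 reads, and with the IL-5 index it was 0.49 without 30 min replicate 6.

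Idi1 (ENSMUSG00000058258, chr13:8885501-8892451), the isopentenyl diphosphate isomerase, was the member detected in the largest share of activated cells. Its pre-stimulation cells stood at 93.4, 0, 6.07, 0 and 0 CPM (IL-13-indexed) and 0, 0, 41.5, 0 and 0 CPM (IL-5-indexed). Activated cells ran from 0 over a median of 122 to 790.0 CPM and from 0 over 101 to 424 CPM. The medians of activated cells thus lay above all 10 pre-stimulation cells, although the ranges overlapped. The summed level was 24.9 CPM before stimulation and 14.2, 141, 114, 167 and 17.8 CPM at 30, 60 and 90 min, in activated and in silent IL-13-indexed cells, and 9.07 and then 249, 224, 171, 147 and 80.9 CPM with the IL-5 index. At 30 min the log2 ratio to pre-stimulation was -0.81 (-1.58 to -0.01) with the IL-13 index. It turned to 1.76, against a floor of 3 reads, when pre-stimulation replicate 1 was left out, and was -2.13 without 30 min replicate 5. With the IL-5 index it was 4.78 (3.93 to 5.79), or 6.30 without pre-stimulation replicate 3, again against that floor. Activated exceeded silent cells by 3.23 (2.80 to 3.69) and 0.87 (0.65 to 1.09), of which the former was 6.09 without silent replicate 1. At equal depth Idi1 had a read in 18 of 22 activated (81.8%, exact interval 59.7 to 94.8), 7 of 21 silent (33.3%, 14.6 to 57.0) and 3 of 10 pre-stimulation cells (30%, 6.67 to 65.2).

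Mvd, the decarboxylase that yields isopentenyl diphosphate, had 0 reads in the 10 pre-stimulation cells and was highest in activated cells. It stood at 91.8 and 54.1 CPM there (6 and 9 of 11 cells), at 7.93 and 0 CPM in silent cells, and between 16.4 and 37.4 CPM at 30 to 90 min. Activated exceeded silent cells by a log2 ratio of 3.53 (2.89 to 4.25) with the IL-13 index, 0.79 on the first date and 6.22 without silent replicate 3, and at least 55.3-fold with the IL-5 index. At equal depth 13 of 22 activated (59.1%, 36.4 to 79.3) and 1 of 21 silent cells (4.76%, 0.12 to 23.8) had a read, and 0 of 10 pre-stimulation cells, which allows a share of up to 30% as 3 counts of 10 (exact upper limit 30.8).

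The remaining genes of this arm were sparse. Acat2, an acetyl-CoA acetyltransferase, had reads in 21 of 120 cells, none of them pre-stimulation cells, and peaked at 64.7 CPM at 60 min with the IL-5 index. Pmvk and Mvk, the kinases that phosphorylate mevalonate in turn, had reads in 19 and 6 cells, again none before stimulation. Of Pmvk, 1 cell held all 181 reads of the IL-13-indexed 90 min group, its highest (109 CPM). Fdps, the farnesyl diphosphate synthase, reached 29.9 CPM at most, with 98.8% of those reads in 1 cell.

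At the branch to squalene, Fdft1 (ENSMUSG00000021273, chr14:63145150-63179578), squalene synthase, differed between the indexes before stimulation. It stood at 0, 255, 0, 0 and 0 CPM in the 5 IL-13-indexed and at 0 in the 5 IL-5-indexed cells. At 30 min it reached 308 CPM with the IL-5 index (9 of 11 cells, lowest 0, median 173, highest 1026 CPM), at least 125-fold above pre-stimulation. IL-13-indexed cells had 81.8 CPM in 3 cells, a log2 ratio of 0.88 (0.40 to 1.38), or 0.23 without 30 min replicate 9. Without pre-stimulation replicate 2, the cell with the reads, it was 4.44 against a floor of 3 reads. Later levels were 93.4, 45.0, 61.1 and 15.9 CPM at 60 and 90 min, in activated and in silent IL-13-indexed cells and 83.7, 108, 35.4 and 57.1 CPM with the IL-5 index.

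Sqle (ENSMUSG00000022351, chr15:59315077-59331192), squalene epoxidase, had 0 reads in all 10 pre-stimulation cells, which allows up to 3.11 and 2.47 CPM. IL-13-indexed cells held 118, 34.9, 78.1 and 74.5 CPM at 30, 60 and 90 min and when activated (4, 1, 5 and 4 cells), and 0 again in 11 silent cells. IL-5-indexed cells held 125, 67.3, 194 and 176 CPM (6, 5, 5 and 7 cells) and 79.3 CPM in 7 silent cells. The silent cells of the 2 indexes thus stood apart in Sqle, where index and date cannot be told apart. Activated exceeded silent cells at least 65.8-fold with the IL-13 index (a log2 bound of 6.04, or 5.02 without activated replicate 10) and by a log2 ratio of 1.15 (0.94 to 1.37) with the IL-5 index, 0.81 without activated replicate 1 and 1.78 without silent replicate 9. At equal depth 39 of 103 stimulated cells had a read (37.9%, 28.5 to 48.0), against 0 of 10 before stimulation (exact upper limit 30.8%).

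Lss, the lanosterol synthase, had 196 reads in 1 silent IL-13-indexed cell (74.1 CPM) and at most 45.2 CPM in the other groups. Lss and Fads1 were the members called lower in activated than in silent cells with both indexes (11.1% of all genes), and Mvd, Sqle, Cyp51 and Hsd17b7 those called higher (7.07%). Of these 4, Mvd and Cyp51 stayed at least 2-fold higher with both indexes when any 1 cell was left out. With the IL-13 index neither group would hold an Lss read without that cell, and the Fads1 ratio of -2.46 was 2.29 without silent replicate 6. With the IL-5 index, activated cells had 0 Fads1 reads and silent cells 5, in 1 cell.

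Cyp51 (ENSMUSG00000001467, chr5:4081145-4104746), the lanosterol demethylase, was also nearly absent before stimulation, with 2 reads in 1 IL-13-indexed cell and 0 in the IL-5-indexed cells. It then stood at 63.5, 144, 79.3, 72.7 and 14.7 CPM at 30, 60 and 90 min, in activated and in silent IL-13-indexed cells (4, 6, 6, 7 and 1 of 11 cells) and at 76.6, 127, 144, 221 and 56.8 CPM with the IL-5 index (3, 6, 8, 8 and 3 cells). Activated cells had medians of 59.5 and 209 CPM (lowest 0 and 0, highest 179 and 505), while the highest pre-stimulation cell was at 8.13 CPM. The log2 ratio of activated to pre-stimulation cells was 5.13 (3.26 to 8.18) with the IL-13 index, where 2 reads stood before stimulation, and the IL-5-indexed level was at least 89.3-fold higher. At equal depth 15 of 22 activated (68.2%, 45.1 to 86.1), 4 of 21 silent (19.0%, 5.45 to 41.9) and 1 of 10 pre-stimulation cells (10%, 0.25 to 44.5) had a read. Activated exceeded silent cells by 2.30 (1.81 to 2.83) and 1.96 (1.72 to 2.21), but on the first dates alone by 0.50 and -0.46, and all silent IL-13-indexed reads came from replicate 1. Without silent replicate 1 of either index the IL-13 and IL-5 ratios were 5.90, against a floor of 3 reads, and 2.55. Cyp51 overlaps Akap9 on the opposite strand, and without a stated strand setting reads of such partners cannot be told apart. The same holds for Fdft1 (with Ctsb), Srebf1 (Rai1) and, with less known transcripts, Hmgcs1, Mvd, Idi1, Lss, Insig2, Scap and Acaca.

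Msmo1 (ENSMUSG00000031604, chr8:64718139-64733792), the sterol C4-methyl oxidase, was the most abundant member, with a mean of 221 CPM, and peaked at 90 min with both indexes. Its pre-stimulation cells stood at 134, 0, 0, 0 and 0 CPM (IL-13-indexed) and 435, 0, 106, 0 and 0 CPM (IL-5-indexed). Medians at 30, 60 and 90 min, in activated and in silent cells were 0, 163, 584, 103 and 0 CPM with highest cells at 1612, 1169.5, 1370.0, 513 and 389 CPM, and with the IL-5 index 193, 0, 259, 244 and 228 CPM with highest cells at 889, 696, 1038, 738 and 1394 CPM. The last of these, replicate 7, was a shallow library with 3 Msmo1 reads of 2152, and the next highest silent cell had 1238 CPM. The lowest cell was at 0 in each of these groups, so all overlapped the pre-stimulation cells. The summed level went from 34.2 to 350.0 CPM and from 70.9 to 389 CPM at 90 min, log2 ratios of 3.35 (2.85 to 3.91) and 2.45 (2.13 to 2.79). Silent cells gave 1.25 (0.72 to 1.83) and 1.79 (1.47 to 2.13), of which the first was 0.29 without silent replicate 6. Pre-stimulation replicate 1 held all reads of the IL-13-indexed and most of the IL-5-indexed group. Without it the 90 min ratios were 6.39 and 3.90, and the silent ratios 4.29 and 3.24, the IL-13 values against a floor of 3 reads.

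Nsdhl and Hsd17b7, which act with Msmo1 in removing the C4 methyl groups, had 5 and 6 reads in 1 IL-13-indexed pre-stimulation cell and 0 in the IL-5-indexed ones. Nsdhl was then between 13.1 and 84.6 CPM in all states, with reads in 31 of 120 cells. Hsd17b7 had reads in 15 cells, 226 of its 502 reads in 4 activated IL-13-indexed cells, and none in silent cells. Dhcr7 and Tm7sf2, both sterol reductases, had 29 and 38 reads in 6 and 2 cells.

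Ebp and Sc5d, which follow later in the pathway, departed from this pattern. Ebp (ENSMUSG00000031168, chrX:8185329-8193512), the sterol isomerase, stood at 301, 0, 0, 0 and 426 CPM in IL-13-indexed and 0, 3.26, 3.78, 429.7 and 654 CPM in IL-5-indexed pre-stimulation cells. Its summed level was 172 CPM before stimulation and 84.4, 102, 39.6, 166 and 71.0 CPM at 30, 60 and 90 min, in activated and in silent cells, and 221 and then 123, 128, 57.4, 51.4 and 139.6 CPM with the IL-5 index, so that no later group stood above pre-stimulation. At 90 min the log2 ratios were -2.12 (-2.55 to -1.70) and -1.95 (-2.29 to -1.61), or -1.32 and -1.16 without pre-stimulation replicate 5. All IL-13-indexed reads of 90 min came from replicate 6, and without replicate 10 the IL-5 ratio was -3.26. Activated cells gave -0.05 (-0.30 to 0.21) and -2.10 (-2.38 to -1.83), or 0.75 and -1.32 without pre-stimulation replicate 5. The share of cells with an Ebp read at equal depth was 40% before and 35.0% after stimulation.

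Sc5d (ENSMUSG00000032018, chr9:42251595-42264256), the lathosterol desaturase, stood at 402, 0, 0, 243 and 134 CPM in IL-13-indexed and 0, 0, 125, 143 and 602 CPM in IL-5-indexed pre-stimulation cells. The summed level was 175 and 168 CPM before stimulation, and then 78.8, 202, 61.2, 74.8 and 169.6 CPM and 71.2, 193, 219, 99.9 and 104 CPM in the order of states given above, with medians of 0, 251, 0, 18.3 and 3.82 CPM and 0, 68.8, 78.8, 0 and 63.6 CPM. No direction held over the states. At 30 min the log2 ratios were -1.15 (-1.45 to -0.85) and -1.24 (-1.51 to -0.97), and without 1 pre-stimulation cell, replicate 1 and replicate 5, they were -0.31 and -0.08. Without 30 min replicate 10 the IL-13 ratio was -2.13. Reads were found in 6 of 10 pre-stimulation (60%) and 53 of 103 stimulated cells (51.5%) at equal depth.

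Across the 12 groups, each of these genes was set beside the sum of the other sterol synthesis genes, as log2(CPM + 10). Pearson's r was 0.75 to 0.85 for Hmgcs1, Idi1, Fdft1, Sqle, Cyp51 and Msmo1, -0.53 for Ebp and -0.35 for Sc5d, and 0.74 for the regulator Insig1 beside the sterol sum. These values describe 12 groups that differ in depth and in the number of genes detected.

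**Figure D4:**
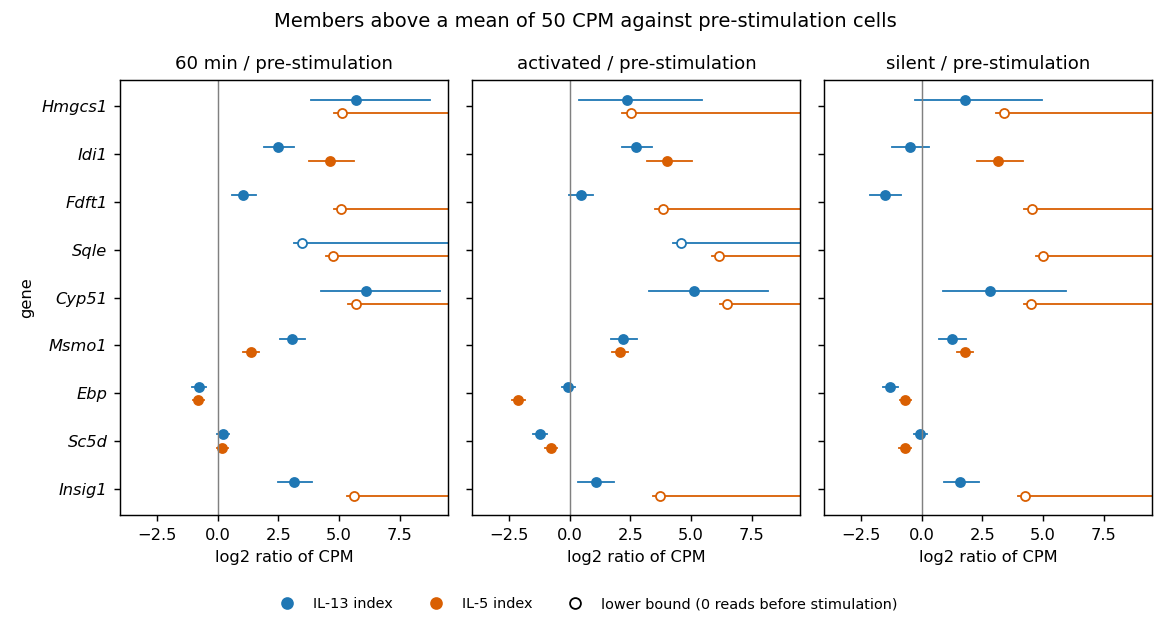
Log2 ratio of CPM to pre-stimulation cells at 60 min, in activated and in silent cells for the 9 members averaging at least 50 CPM, with 95% counting intervals; open circles are lower bounds, set against 3 reads where pre-stimulation cells had 0, and their intervals run off the axis. Ebp and Sc5d lie at or below 0.21 in all 3 panels, and Sqle has no IL-13 point in silent cells, where both groups had 0 reads.

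Among the regulators, Insig1 (ENSMUSG00000045294, chr5:28071363-28078662), a brake on SCAP and itself a known SREBP target, was also higher in each state after stimulation. Its pre-stimulation cells stood at 77.2, 0, 0, 0 and 0 CPM (IL-13-indexed) and at 0 in all 5 IL-5-indexed cells. The level was then 64.3, 173, 106, 41.3 and 59.7 CPM at 30, 60 and 90 min, in activated and in silent IL-13-indexed cells and 75.2, 122, 189, 33.0 and 48.0 CPM with the IL-5 index. The highest cells had 734 CPM at 60 min (IL-13 index, median 44.3) and 1271 CPM at 90 min (IL-5 index, median 0), with the lowest at 0, so the groups overlapped. At 60 min the log2 ratio to pre-stimulation was 3.14 (2.48 to 3.88) with the IL-13 index, 2.23 without 60 min replicate 9 and 5.38 without pre-stimulation replicate 1, and the IL-5-indexed level was at least 49.4-fold higher. In activated IL-13-indexed cells the ratio was 1.07 (0.37 to 1.85), but -0.48 without activated replicate 4 and 3.31 without pre-stimulation replicate 1. Both values without pre-stimulation replicate 1 stand against a floor of 3 reads. Activated against silent cells gave -0.53 (-0.87 to -0.19) and -0.54 (-0.90 to -0.19), which turned to 0.69 and 1.50 without silent replicate 1 and silent replicate 8, and the former to -2.08 without activated replicate 4.

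Scap, the SREBP escort, stood at 0 in the 5 IL-13-indexed and at 0, 0, 49.1, 0 and 0 CPM in the IL-5-indexed pre-stimulation cells. It was later at 24.3, 0, 7.20, 31.3 and 49.9 CPM in the order of states given above and at 9.85, 70.0, 104, 9.91 and 42.7 CPM with the IL-5 index, with a median cell at 0 in each group and the highest cell at 946 CPM. That cell, IL-5-indexed replicate 11 at 90 min, was a shallow library with 63 Scap reads of 66588, and the next highest of the 120 cells had 417 CPM. The SREBP genes themselves were low. Srebf2, whose product mainly drives cholesterol genes, had reads in 31 of 120 cells and at most 43.7 CPM, from 1 IL-5-indexed pre-stimulation cell. Srebf1, which leans towards fatty acid genes, stood at 45.0 CPM in silent IL-13-indexed cells (4 cells) and at or below 21.4 CPM elsewhere. Insig2 had 76.0 CPM in 3 IL-5-indexed cells of 30 min and at most 26.6 CPM in the other groups.

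Summed over the 5 regulators, IL-13-indexed cells went from 20.7 CPM to 94.9, 197, 140.5, 81.1 and 173 CPM and IL-5-indexed cells from 75.9 CPM to 189, 239, 295, 72.6 and 114 CPM. All 20 IL-13-indexed pre-stimulation reads came from replicate 1, and 284 of the 604 IL-13-indexed reads at 60 min from replicate 9. The log2 ratio at 60 min was 3.25 (2.61 to 3.97), 2.53 without 60 min replicate 9 and 5.56, against a floor of 3 reads, without pre-stimulation replicate 1. Of the 92 IL-5-indexed pre-stimulation reads 53 came from replicate 2. Without it the IL-5 ratio at 60 min went from 1.66 to 2.47, in silent cells from 0.58 to 1.40 and in activated cells from -0.064 to 0.75. Activated cells lay below silent cells by log2 ratios of -1.09 (-1.32 to -0.87) and -0.65 (-0.88 to -0.42), which within the 2 dates were -2.18 and 0.23 for the IL-13 index and -0.70 and -0.82 for the IL-5 index. The former did not hold on the second date, and the IL-5 ratio was -1.25 without activated replicate 8 and -0.15 without silent replicate 8.

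Stard4, which carries cholesterol between membranes, stood at 0, 0, 0, 0 and 116 CPM in the IL-13-indexed and at 0 in the IL-5-indexed pre-stimulation cells. It was then at 5.60, 4.25, 48.6, 22.9 and 1.51 CPM in the order of states given above (2, 3, 3, 2 and 1 cells) and at 33.5, 45.1, 78.2, 22.2 and 23.5 CPM with the IL-5 index (1, 2, 5, 3 and 2 cells). The median cell was at 0 in each of these groups and the highest at 402 CPM. The 2 indexes gave opposite directions at 30 min, with a log2 ratio of -2.21 (-3.24 to -1.23) and a level at least 13.5-fold higher. Without pre-stimulation replicate 5 the former was 0.48 and without 30 min replicate 1 it was -4.44, each against a floor of 3 reads.

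The summed fatty acid genes stood above pre-stimulation in each state with the IL-13 index, on few cells and 9 reads before stimulation. With the IL-5 index the direction turned on 1 pre-stimulation cell, except in silent cells, where the ratio without it was close to no difference. Their sum was 9.33 CPM before stimulation (9 reads) and 69.1, 35.9, 119, 78.6 and 74.1 CPM later in IL-13-indexed cells, and 154 CPM (187 reads) and then 141, 94.8, 48.7, 53.6 and 31.0 CPM in IL-5-indexed cells. Of the IL-13-indexed cells, 3 of 5 were at 0 before stimulation and 9, 7, 6, 4 and 7 of 11 later. Activated cells gave log2 ratios of 3.07 (2.13 to 4.22) and -1.53 (-1.82 to -1.23) to pre-stimulation. The IL-13 ratio at 30 min was 2.89, or 0.79 without 30 min replicate 2, with 0 reads on the second date. At 90 min it was 3.67, or 1.83 without 90 min replicate 10. Of the 187 IL-5-indexed reads 158 came from replicate 2. The IL-5 ratios at 30, 60 and 90 min and in silent cells were -0.13 (-0.38 to 0.12), -0.70 (-0.97 to -0.43), -1.66 (-2.05 to -1.29) and -2.32 (-2.69 to -1.95), of which the first has no difference within its interval. Without replicate 2 they were 2.14, 1.57, 0.60 and -0.047, and the activated ratio was 0.74. The contrast rests on these few reads before stimulation. Against all 10 pre-stimulation cells the ratios at 30 min, in activated and in silent cells were -0.38, -0.20 and -0.28 with the IL-13 and 0.64, -0.75 and -1.54 with the IL-5 index, and with TMM scaling the IL-5 ratio at 30 min was 0.23.

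Fasn, the fatty acid synthase, stood at 20.3, 0, 0, 0 and 4.63 CPM in IL-13-indexed and 0, 411, 0, 0 and 0 CPM in IL-5-indexed pre-stimulation cells. Activated cells ran from 0 over a median of 4.58 to 210.0 CPM and from 0 over 12.9 to 143 CPM. Reads were found in 6 and 7 of 11 activated and in 4 and 2 of 11 silent cells, so the groups overlapped. Fads1, a desaturase, stood at 12.2, 0, 0, 0 and 0 CPM and 0, 0, 109.5, 0 and 0 CPM before stimulation and had reads in 11 of 120 cells, the highest at 727 CPM. Acaca, which makes malonyl-CoA, had reads in 5 cells, and Scd2, a stearoyl-CoA desaturase, had 177 of its 178 reads in 1 IL-5-indexed cell of 30 min.

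Neighbouring pathways were described by 6 lists of 76 genes in activated against pre-stimulation cells, where 37.1% of all genes were higher and 26.9% lower with the IL-13 and 39.1% and 28.2% with the IL-5 index. Many of the lists' counts lie near these shares, no list was tested, and the genes named stand by their own values. For SREBP processing and turnover, 4 higher and 2 lower of 9 were called with the IL-13 index and 5 higher and 3 lower with the IL-5 index. Mbtps1, the site-1 protease that cleaves SREBP, had 0 reads in the 10 pre-stimulation cells and 128 and 48.0 CPM (6 and 4 cells) in activated cells of the 2 indexes. Ube2g2, a ubiquitin-conjugating enzyme of sterol-regulated degradation, went likewise from 0 to 31.9 and 6.97 CPM (2 and 3 cells). Fbxw7, which marks nuclear SREBP for degradation, stood at 89.2 and 9.07 CPM before stimulation (1 and 1 of 5 cells) and 26.9 and 1.34 CPM in activated cells (2 and 1 of 11), and Gsk3b, the kinase that prepares it for that, at 22.8 and 94.0 CPM before stimulation (2 and 3 of 5 cells) and 6.26 and 7.77 CPM in activated cells (1 and 2 of 11).

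Fatty acid activation and elongation had 6 higher and 4 lower of 11 with the IL-13 and 5 higher and 2 lower with the IL-5 index. Hacd3, a dehydratase of elongation, stood at 99.5 and 0 CPM before stimulation (2 and 0 of 5 cells) and 277 and 291 CPM in activated cells (11 and 11 of 11). Acsl4, an acyl-CoA synthetase, stood at 1.04 and 0 CPM before stimulation (1 and 0 of 5 cells) and 22.2 and 49.0 CPM in activated cells (5 and 5 of 11), and Mid1ip1, an activator of acetyl-CoA carboxylase, went from 0 to 6.58 and 22.0 CPM (3 and 5 cells). Lipid uptake and storage had 3 higher and 1 lower of 6, and 3 higher and 2 lower. Dgat2, which makes triglyceride, and Fabp5, a fatty acid carrier, had 0 reads before stimulation and 59.5 and 135 CPM (3 and 6 cells) and 36.6 and 65.4 CPM (1 and 4 cells) in activated cells. Plin3, a lipid droplet coat gene, had 0 reads in activated cells, against 86.1 and 82.5 CPM before stimulation, each from 1 cell.

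The isoprenoid branch had 2 higher and 3 lower of 10, and 6 higher and 2 lower, with Rabggtb, a subunit of Rab prenyltransferase, at 0 and 44.5 CPM before stimulation (0 and 1 of 5 cells) and 95.2 and 112 CPM in activated cells (10 and 8 of 11). LXR and sterol handling had 2 higher and 3 lower of 8, and 4 higher and 1 lower. Vapa, which tethers lipid transfer proteins to the endoplasmic reticulum, stood at 49.8 and 47.8 CPM before stimulation (2 and 2 of 5 cells) and 233 and 227 CPM in activated cells (10 and 11 of 11), and Osbpl9, an oxysterol-binding protein relative, went from 0 to 6.26 and 10.7 CPM (2 and 1 cells). Fatty acid oxidation had 3 higher and 2 lower of 12, and 3 higher and 4 lower, with Etfdh, which passes electrons from it to ubiquinone, going from 0 to 10.3 and 21.2 CPM (1 and 2 cells).

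Outside these pathways, the genes whose level over the 12 groups was most like the sterol synthesis sum were Lta (Pearson's r 0.96), Il2ra (0.94), Il5 (0.94), Fbxl21 (0.92) and Ifrd1 (0.92), among 2647 genes averaging at least 50 CPM, on log2(CPM + 10). The median r of these genes was 0.13, and 7.40% lay above 0.7. Il2ra, the IL-2 receptor alpha chain, stood at 406 and 213 CPM before stimulation and at 1226 and 2566 CPM in activated cells, and Il5, the cytokine gene, at 23.8 and 0 and at 772 and 2929 CPM. These genes were singled out by their likeness, so their r is a description.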

How the data were processed

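Libraries of 120 single ILC2 were made with a 3' kit (SMART-Seq v4 3' DE), 5 or 6 being pooled before tagmentation. The deposited values are raw counts of reads for each Ensembl gene. Per the labels and the methods, read 1 was aligned to mouse GRCm38 (mm10; the submitters' processing notes also name GRCh38) by TopHat, and HTSeq did the counting. For HTSeq, neither strand setting nor annotation release is given in the sources used here. HTSeq's summary entries were left out. In all, 62.0% of tallied alignments lay in genes, 28.7% were not unique, 7.42% had no feature and 1.86% were ambiguous. Symbols were matched by identifier (45143 of 46078), positions were taken from the GENCODE annotation of GRCm38 and promoters from RefSeq. Members, lists and rules were chosen with earlier results of these data known, so no list is independent evidence.

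A group's level is the sum of its cells' reads per 1000000 gene reads (CPM), with exact Poisson limits at 95%. Ratios carry Clopper-Pearson limits on how the reads split between the groups. A group under 3 reads was set to 3, a ratio to 1 to 3 reads was printed without that floor, and none was given where neither group passed it. Ratios with 1 cell left out kept the floor. Calls ran over all 6620 genes averaging 10 CPM or more and needed 2-fold with limits on 1 side of 0. Detection is 1 read or more after thinning to 100000 reads (113 cells kept, 7 left out). All 29 members were accounted for. Those averaging 50 CPM were given in full, and cell values for the most abundant members of each role. Cell values of Hmgcs1, Cyp51, Ebp and Fdft1, the comparison of detection with all genes, and the motif share of well measured genes were added after values were seen. From each further list, up to 3 genes of the highest mean called the same way in both indexes were named, and the 5 genes most like the sterol sum; 1 gene that the rule names is not reported here. Ratio and limits were tested on simulated data. With 1 sample a group, no fold has a replicate check.

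Other settings tried were the average of single cells' CPM, TMM (edgeR 4.0.16) and size factors of DESeq2 1.42.0, totals lacking the 100 most abundant genes, leaving out shallow cells, the first title date, pooling the pre-stimulation cells, minimums of 0 and 50 CPM, 4-fold, unthinned cells, a limit of 5 reads, and leaving out each cell. Python 3.11.15 with scipy 1.17.1, pandas 2.3.3, numpy 2.4.6 and matplotlib 3.10.9, and R 4.3.3 were used.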

Additional observations from a re-analysis of the deposited data

Results flagged for a closer look

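Among the 2 pre-stimulation groups of 5 cells, 8 sets of cell values were checked for a cell far from the others, and 3 had one. Chance flags about 1 in 20 sets of normal values, a rate that does not apply to sets with most cells at or near 0, such as these 3. Replicate 1 of the IL-13-indexed cells held all reads of the 5 SREBP regulators (81.3 CPM, the other 4 cells at 0). The same cell was highest in the fatty acid synthesis sum, at 32.5 CPM with the next cell at 4.63. It had 3896 genes detected at equal depth, the most of its group, and the part of this in both values was not tested. Replicate 2 of the IL-5-indexed cells was highest in the fatty acid synthesis sum of its group, at 515 CPM with the next cell at 109.5, from 158 reads.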

How the results depend on the processing

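Levels rest on few cells, and a 3' library of 1 cell misses many transcripts, so a gene at 0 reads was not shown to be absent. Counting limits do not cover the spread between cells, which was larger. With 1 sample a group there is no replicate error, and the cause of the moves below was not tested. No paired analysis was possible because replicate numbers only name cells and each result is a ratio of 1 sample to another, with no test. The states after stimulation share their 2 title dates. Ratios within a date stand beside some of the results only, and not beside the counts of members called. Log2 ratios of sums to pre-stimulation are given IL-13 first, then IL-5.

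With TMM the sterol sum gave 1.15 and 2.32 at 30 min, 1.41 and 1.83 in activated and 1.27 in silent IL-5-indexed cells, and 1.09 and 0.56 for activated against silent, where DESeq2 size factors gave 0.56 with the IL-5 index. The IL-5 fatty acid sum with TMM was 0.23 at 30 min, -1.05 in activated and -1.94 in silent cells. On the first date alone the sterol sum gave 1.12 and 1.61 at 30 min, 0.59 in activated IL-5-indexed cells and -0.25 against silent ones. The fatty acid sum there gave 4.32 and -0.90 at 30 min, and 2.03 and 1.91 in activated and silent IL-13-indexed cells. The average of single cells' CPM gave a sterol sum of 1.16 and 1.65 at 30 min, 1.37 in activated IL-13-indexed cells and 0.36 for activated against silent with the IL-5 index. Against all 10 pre-stimulation cells the fatty acid sum turned to -0.38, -0.20 and -0.28 at 30 min, in activated and silent IL-13-indexed cells, and was 0.64, -0.75 and -1.54 with the IL-5 index.

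Leaving out 1 cell, the sterol ratios ranged over 0.67 to 1.62 and 1.54 to 2.60 at 30 min, 0.91 to 1.87 and 0.94 to 2.00 in activated, -0.15 to 0.96 and 0.47 to 1.53 in silent cells, and 0.74 to 1.32 and 0.31 to 0.60 for activated against silent. The fatty acid ratios ranged over 0.79 to 4.05 and -1.44 to 2.14, 2.43 to 4.23 and -1.92 to 0.74, 2.25 to 4.15 and -3.42 to -0.047, and -0.56 to 0.82 and 0.45 to 1.89, in the same order. Of these, 4.05, 4.23 and 4.15 stand against a floor of 3 reads. Totals without the 100 most abundant genes and leaving out shallow cells moved none of these ratios beyond its counting interval.

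At 4-fold fewer members were called. For 30 min against pre-stimulation, 2 (IL-13) and 0 (IL-5) were lower, in activated cells 0 and 2 were lower, and in silent cells 7 (IL-13) were higher and 2 and 1 lower. For activated against silent, 3 (IL-13) were lower, and 3 were higher and 2 lower with the IL-5 index. With a minimum of 50 CPM, which leaves 9 members, the counts higher and lower were 5 and 2 (IL-13) and 7 and 1 (IL-5) at 30 min. In activated cells 6 (IL-13) were higher, and 7 were higher and 1 lower with the IL-5 index. In silent cells they were 3 and 2 (IL-13) and 7 and 0 (IL-5), and for activated against silent 5 and 1 (IL-13) and 2 and 1 (IL-5). Without a minimum, 4 members were lower at 30 min and 5 in silent IL-5-indexed cells. The median number of the 29 members detected per cell, unthinned, was 1, 4, 6, 8, 7 and 4 in IL-13-indexed and 3, 8, 6, 7, 9 and 7 in IL-5-indexed cells before stimulation, at 30, 60 and 90 min, in activated and in silent cells. With at least 5 reads it was 1, 3, 5, 5, 7 and 2 and, with the IL-5 index, 3, 7, 5, 6, 9 and 5 in that order.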
